A study of Mus musculus with 6 samples.

Results

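The glycolytic route and the genes that hypoxia-inducible factor 1 (HIF-1) switches on were followed in unstimulated bone marrow-derived macrophages. A fixed set of 38 genes was used, made of glucose and lactate transporters, glycolytic enzymes, regulators of the route and other hypoxia-induced genes. A gene counted as measured where a probe set carried its symbol and no other, and where several did, the brightest by mean over the 6 arrays was taken. This gave 36 of the 38 genes among 18820 tested genes, while Gpi1 and Eno1 were not analysed here. Ero1l was matched under its current symbol, Ero1a.

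Macrophages of wild-type mice (WT) were compared with those of mice with a Gps2 knockout (GPS2KO), with 3 arrays in each group. The labels name the knockout as one of macrophages (KO or MKO) and give neither a Cre driver nor the exons removed. The mice were males aged 12 to 16 weeks. In both groups, marrow was cultured for 7 days with 30% medium conditioned by L929 fibroblasts, which supplies macrophage growth factor, and received no stimulus. Oxygen in the cultures is not stated in the labels.

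Glycolysis splits glucose into pyruvate, and lactate dehydrogenase turns pyruvate into lactate that leaves the cell. HIF-1 is a dimer of HIF-1 alpha, encoded by Hif1a, and ARNT. With oxygen present, the EGLN prolyl hydroxylases mark HIF-1 alpha for destruction. Without it, or in macrophages that meet inflammatory signals, the factor accumulates and raises transcription of glucose transporters, glycolytic enzymes and genes of mitophagy, angiogenesis and oxygen sensing. HIF-1 binds DNA at a short core, ACGTG or GCGTG.

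Windows with that core are shown first, because it stood before members that fell and before members that did not. The 4 windows below hold the 250 bases before an annotated start, from the RefSeq annotation of GRCm38.p6. Egln3, Bnip3 and Slc16a3 fell in GPS2KO, and Ldha did not pass the test. Capitals mark each ACGTG or GCGTG on either strand, so that CACGT and CACGC are matches on the other strand, and CACGTG counts on both strands.
Egln3, chr12:54203875-54204124, minus strand: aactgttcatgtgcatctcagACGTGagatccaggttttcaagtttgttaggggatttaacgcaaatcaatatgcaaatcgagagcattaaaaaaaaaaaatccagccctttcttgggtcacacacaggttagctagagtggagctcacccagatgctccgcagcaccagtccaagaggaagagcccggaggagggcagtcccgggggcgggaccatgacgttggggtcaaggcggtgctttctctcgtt
Bnip3, chr7:138909507-138909756, minus strand: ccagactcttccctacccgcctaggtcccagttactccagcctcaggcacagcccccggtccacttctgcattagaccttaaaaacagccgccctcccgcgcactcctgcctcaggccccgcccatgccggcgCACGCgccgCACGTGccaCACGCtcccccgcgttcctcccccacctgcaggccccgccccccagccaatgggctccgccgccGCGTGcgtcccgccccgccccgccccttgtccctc
Slc16a3, chr11:120948817-120949066, plus strand: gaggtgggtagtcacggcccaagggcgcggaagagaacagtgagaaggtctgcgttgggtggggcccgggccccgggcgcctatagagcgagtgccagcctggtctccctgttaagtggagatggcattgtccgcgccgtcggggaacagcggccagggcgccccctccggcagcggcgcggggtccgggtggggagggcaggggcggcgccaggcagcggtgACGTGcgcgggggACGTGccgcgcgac
Ldha, chr7:46845554-46845803, plus strand: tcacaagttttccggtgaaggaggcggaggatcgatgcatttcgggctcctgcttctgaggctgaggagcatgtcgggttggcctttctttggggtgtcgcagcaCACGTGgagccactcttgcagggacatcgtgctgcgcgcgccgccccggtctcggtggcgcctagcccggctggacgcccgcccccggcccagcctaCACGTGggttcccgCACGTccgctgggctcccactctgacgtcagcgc
Egln3 held 1 match, Bnip3 5, Slc16a3 2 and Ldha 5. In this Ldha window all 5 were ACGTG, and in Bnip3 2 were. A second annotated start of Ldha had a window, not printed here, with 1 match and 0 of ACGTG.

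Windows were found for 34 measured members, and a gene with several annotated starts had several windows. At least 1 window held ACGTG in 22 of the 34 genes (64.7%), against 18.5% of the 27025 genes in the whole table. The members were listed as glycolytic or hypoxia-induced genes, many of them known HIF-1 targets, so this share describes the list. Among the members that fell, 4 of 8 genes with a window held ACGTG, and among the other measured members 18 of 26 did. Counting either core, 9 of 10 windows of members that fell held a match, 30 of 40 windows of the other members and 38.6% of all windows. The windows of Ndrg1 and Bnip3l were not analysed here. A match is a string of letters in this window and not a measured binding site.

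Array medians lay between 5.57 and 5.60 on the log2 scale. The lowest correlation of arrays across genes was 0.9989 inside a group, and the highest between groups was 0.9981. Gps2, the targeted gene, was at 10.96 ± 0.04 in WT and 10.21 ± 0.07 in GPS2KO (SD, n = 3 each), with an exact 2-sided permutation p = 0.1, the smallest that 3 arrays against 3 allow. The macrophage markers Adgre1, Csf1r, Cd68 and Lyz2 were all bright, at WT means of 12.53, 12.74, 13.12 and 13.38. The labels do not say whether the arrays came from separate mice. The p-values therefore describe the spread between these samples only, which may be technical.

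Of the 36 measured members, 9 fell and 2 rose in GPS2KO, and 25 did not pass limma's test at an adjusted p under 0.05. Over all tested genes, 3.83% fell and 2.90% rose, and members fell in 25.0% and rose in 5.56%. Only 1 member, Adm, had a dim signal, and among genes that were not dim the background was 6.06% for falls and 4.54% for rises. The median difference was -0.07 on the log2 scale over the members and -0.01 over all genes, and 29 members had a lower mean in GPS2KO (80.6%, against 53.6% of all genes). After quantile normalization the count of lower means was 26 (72.2%, against 49.9% of all genes), and with each array centred on its median it was 29 (80.6%, against 64.1%). The falls lay at the entry of glucose and the exit of lactate (Slc2a1, Slc16a3), at the enzyme genes Pfkl and Aldoc, and at Pdk1. Among hypoxia-induced genes they lay at Egln3, Bnip3, Ndrg1 and Higd1a. The paralogs Pfkp, Pfkm and Aldoa also had lower means in GPS2KO but did not pass. Hk3 and Pfkfb3 rose.

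For 17 members (47.2%) every GPS2KO array was below every WT array, and for 4 (11.1%) every GPS2KO array was above. Over all tested genes, dim ones included, such a separation was found for 15.2% with GPS2KO lower and 11.9% with GPS2KO higher. The members' share with GPS2KO higher was thus near that of all genes.

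**Figure D1:**
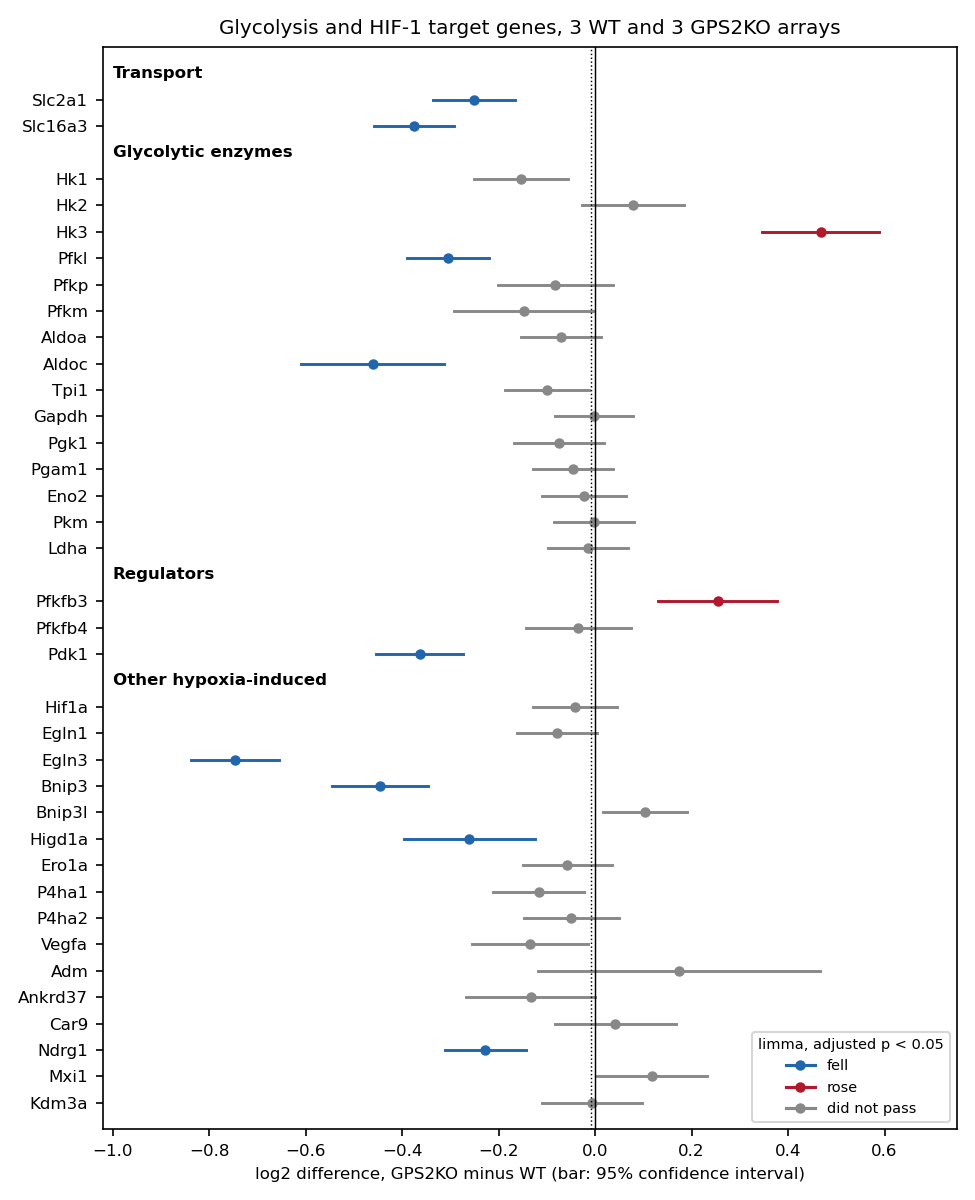
Log2 difference (GPS2KO minus WT) of each of the 36 measured members, with limma's 95% confidence interval; 3 arrays per group. Blue marks the 9 members that fell, red the 2 that rose and grey the 25 that did not pass; the dotted line is the median of all tested genes, -0.01. Egln3 lies farthest to the left, at -0.75, and Hk3 farthest to the right, at 0.47.

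Both transporters on the list fell. Slc2a1 encodes GLUT1, the transporter that brings glucose into activated macrophages. In log2 units it was at 12.51, 12.54 and 12.49 in WT and at 12.27, 12.27 and 12.26 in GPS2KO. All GPS2KO arrays were below all WT arrays, and the fall was 0.25 on the log2 scale (SE 0.0361, n = 3 each; limma's Benjamini-Hochberg adjusted p = 0.00684), leaving 84.0% of the WT signal. Slc16a3 encodes MCT4, which exports lactate. It was at 11.69, 11.68 and 11.68 in WT and at 11.33, 11.28 and 11.30 in GPS2KO. The groups did not overlap, with SDs of 0.00425 and 0.0216, and Slc16a3 fell to 77.1% (difference -0.38, SE 0.0358; adjusted p = 0.00116).

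The hexokinases, which phosphorylate glucose after entry, did not move together. Hk3, the isoform found mainly in myeloid cells, was at 9.79, 9.92 and 9.85 in WT and at 10.36, 10.35 and 10.24 in GPS2KO. Every GPS2KO array was above every WT array, and Hk3 rose 1.38-fold (0.47, SE 0.0519; adjusted p = 0.00221). It was the largest rise among the measured members. Hk1, the broadly expressed isoform, was at 10.32, 10.40 and 10.42 in WT and 10.23, 10.25 and 10.20 in GPS2KO. Its difference of -0.15 (95% confidence interval -0.25 to -0.06) did not pass, with adjusted p = 0.0769. The Hk1 value passed with each array centred on its median (adjusted p = 0.0449), without dim genes (0.0311) and with a variance trend (0.0114). Hk2, the isoform best known as a HIF-1 target, was at 9.55, 9.49 and 9.43 in WT and at 9.53, 9.59 and 9.59 in GPS2KO, with overlapping groups and a difference of 0.08 (-0.03 to 0.18).

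Phosphofructokinase commits sugar to glycolysis and has a liver (Pfkl), a platelet (Pfkp) and a muscle isoform (Pfkm). Pfkl was at 10.63, 10.63 and 10.59 in WT and at 10.32, 10.33 and 10.30 in GPS2KO. The groups did not overlap, and Pfkl fell by 0.30 (SE 0.0367, adjusted p = 0.00306), to 81.0% of WT. Pfkp was at 9.86, 9.74 and 9.80 in WT and 9.76, 9.76 and 9.64 in GPS2KO, a difference of -0.08 (-0.20 to 0.04). Pfkm was at 8.82, 8.70 and 8.67 against 8.68, 8.58 and 8.49, a difference of -0.15 with adjusted p = 0.227. Both of these isoforms had overlapping groups.

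Aldolase cleaves the doubly phosphorylated sugar. Aldoc, the isoform best known from brain, was at 9.84, 9.63 and 9.69 in WT and at 9.34, 9.23 and 9.21 in GPS2KO. It fell by 0.46 (SE 0.0637, adjusted p = 0.00576), to 72.7%, the largest fall among the measured enzymes. Aldoa, the main isoform of most tissues, was at 13.07, 13.07 and 13.04 against 12.99, 12.99 and 13.00. Its groups did not overlap, but the difference of -0.07 (-0.15 to 0.01) did not pass (adjusted p = 0.328). It passed with a variance trend, at adjusted p = 0.0288.

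The lower part of the route differed little. Triose phosphate isomerase (Tpi1) was at 12.19, 12.19 and 12.18 in WT and 12.12, 12.06 and 12.08 in GPS2KO, a difference of -0.10 with adjusted p = 0.182 (0.0138 with a variance trend). Phosphoglycerate kinase (Pgk1) differed by -0.08 and phosphoglycerate mutase (Pgam1) by -0.05, each without overlap of the groups and neither past the threshold. Enolase 2 (Eno2) differed by -0.02.

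Gapdh was at 13.57 on every WT array and on every GPS2KO array, and its interval ran from 94.5% to 105.6% of WT. Pkm, which makes pyruvate, was at 12.64, 12.65 and 12.65 against 12.66, 12.65 and 12.63 (94.3% to 105.8%). Ldha, which makes lactate from pyruvate, was at 13.09, 13.11 and 13.10 against 13.11, 13.07 and 13.08 (93.4% to 104.9%). For these 3 genes a change as large as that of Pfkl lay outside the 95% interval. The highest value of any probe set on any array was 13.99, and signals close to that end of the scale may compress differences, which was not tested. In all, 10 of the 15 measured enzymes had differences smaller than 0.1, 2 fell (13.3%) and 1 rose (6.67%). Among all tested genes that were not dim, 6.06% fell and 4.54% rose.

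Regulators of the route moved in both directions. Pdk1 encodes a kinase that shuts pyruvate dehydrogenase and so keeps pyruvate from mitochondria. It was at 9.60, 9.55 and 9.55 in WT and at 9.21, 9.22 and 9.17 in GPS2KO, with no overlap. It fell by 0.36 (SE 0.0387, adjusted p = 0.00181), to 77.7%. Pfkfb3 makes the sugar bisphosphate that activates phosphofructokinase. It was at 8.66, 8.54 and 8.61 in WT and at 8.91, 8.88 and 8.77 in GPS2KO, a rise of 0.25 (SE 0.053, adjusted p = 0.0307) without overlap. The Pfkfb3 call ended without any 1 of the arrays except GPS2KO replicate 3, with adjusted p from 0.0505 without WT replicate 1 to 0.107 without GPS2KO replicate 2. Its relative Pfkfb4 was at 8.51, 8.45 and 8.59 against 8.46, 8.51 and 8.49, a difference of -0.03 (-0.14 to 0.07).

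**Figure D2:**
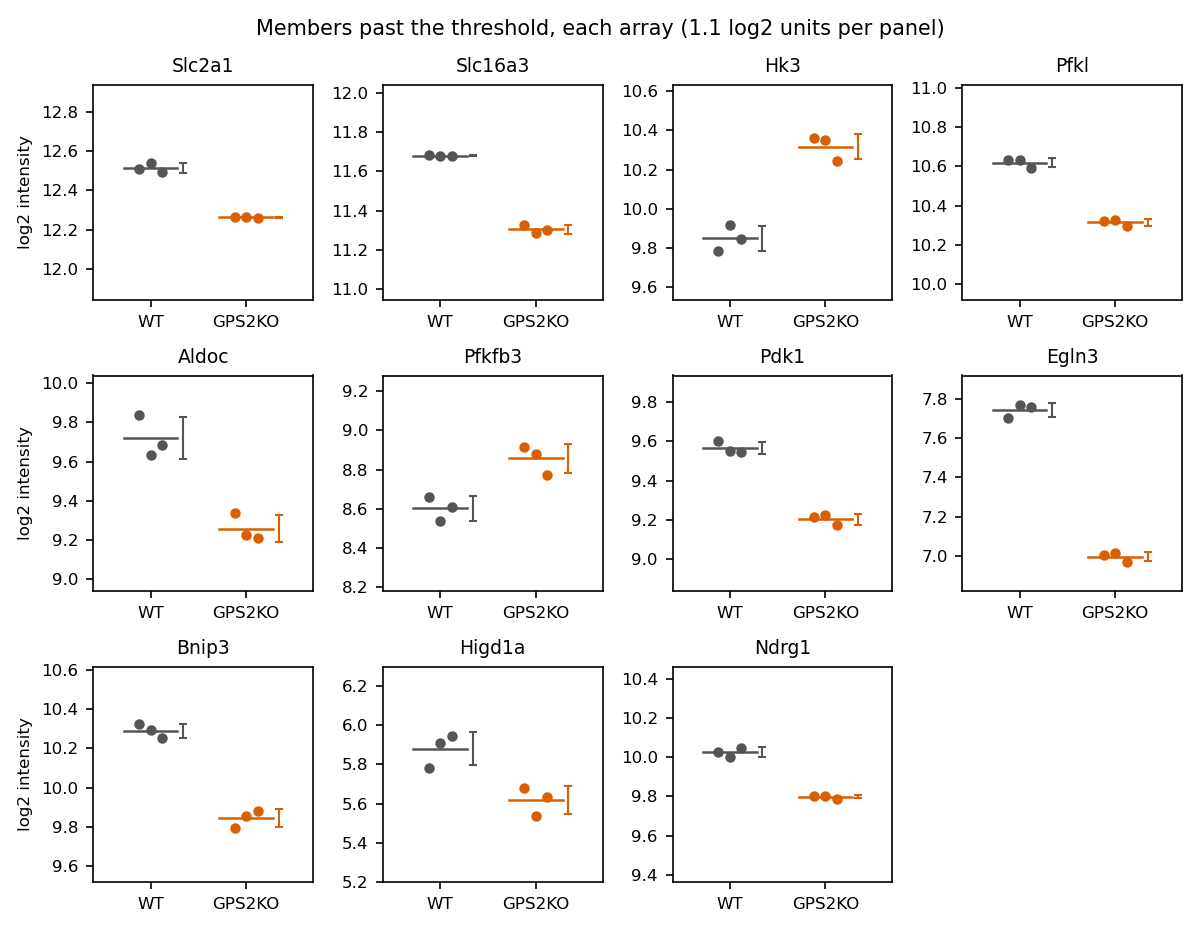
Log2 intensity on each array of the 11 members past the threshold, 3 WT (grey) and 3 GPS2KO (orange) arrays; lines are means and bars to the right are SDs. Each panel spans the same range of 1.1 log2 units and does not start at 0. In all 11 panels the WT and GPS2KO points do not overlap, with GPS2KO above WT for Hk3 and Pfkfb3.

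Among the oxygen sensors, Egln3 changed most of all measured members. It encodes the prolyl hydroxylase PHD3, which acts on HIF-1 alpha and is itself induced by HIF-1. Its signal was 7.70, 7.77 and 7.76 in WT and 7.00, 7.02 and 6.97 in GPS2KO. The fall of 0.75 (SE 0.039, adjusted p = 0.000149) left 59.6% of the WT signal (95% confidence interval 56.0% to 63.5%). Egln1, which encodes PHD2, the main oxygen sensor of most cells, was at 10.10, 10.13 and 10.13 against 10.03, 10.06 and 10.03. These groups did not overlap either, but the difference of -0.08 (-0.16 to 0.00) had adjusted p = 0.271. Hif1a was at 11.54, 11.56 and 11.50 in WT and 11.47, 11.50 and 11.49 in GPS2KO, a difference of -0.04 (-0.13 to 0.04) with overlapping groups. The arrays measure RNA, and HIF-1 alpha is controlled mainly as a protein.

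Genes of mitophagy and mitochondria were led by Bnip3, a receptor that tags mitochondria for autophagy. It was at 10.32, 10.29 and 10.25 in WT and at 9.79, 9.86 and 9.88 in GPS2KO. It fell by 0.45 (SE 0.0424, adjusted p = 0.00116), to 73.4%. Its relative Bnip3l, which encodes NIX and serves the same process, was at 12.20, 12.26 and 12.23 against 12.33, 12.34 and 12.32. There the GPS2KO arrays were above the WT arrays, by 0.10 (0.02 to 0.19), without passing the test (adjusted p = 0.165; 0.00938 with a variance trend). Higd1a, a mitochondrial protein induced by hypoxia, was at 5.78, 5.91 and 5.95 against 5.68, 5.54 and 5.64. Its fall of 0.26 (SE 0.058, adjusted p = 0.0396) came close to the dim range under 5.49. The Higd1a call ended after quantile normalization (adjusted p = 0.0537) and without any 1 of the arrays except WT replicate 1, at adjusted p from 0.062 without GPS2KO replicate 1 to 0.123 without GPS2KO replicate 2.

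Paralogous members were compared within each array, by the log2 ratio of one to the other. The ratio of Egln3 to Egln1 changed by -0.67 from WT to GPS2KO, that of Bnip3 to Bnip3l by -0.55, that of Aldoc to Aldoa by -0.39 and that of Pfkl to Pfkp by -0.22. The ratio of Pfkl to Pfkm changed by -0.16. The ratio of Hk3 to Hk1 changed by 0.62, that of Hk3 to Hk2 by 0.39 and that of Pfkfb3 to Pfkfb4 by 0.29. For these 8 ratios the groups did not overlap, and each had an exact 2-sided permutation p = 0.1, the smallest possible with 3 arrays against 3 (0.112 after Benjamini-Hochberg adjustment over 9 ratios). The ratio of P4ha1 to P4ha2 changed by -0.07 with overlap (exact permutation p = 0.3). Each of the 8 ratios sets a member past limma's threshold beside a paralog that did not pass, so the ratios restate those calls and are given as a description.

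**Figure D3:**
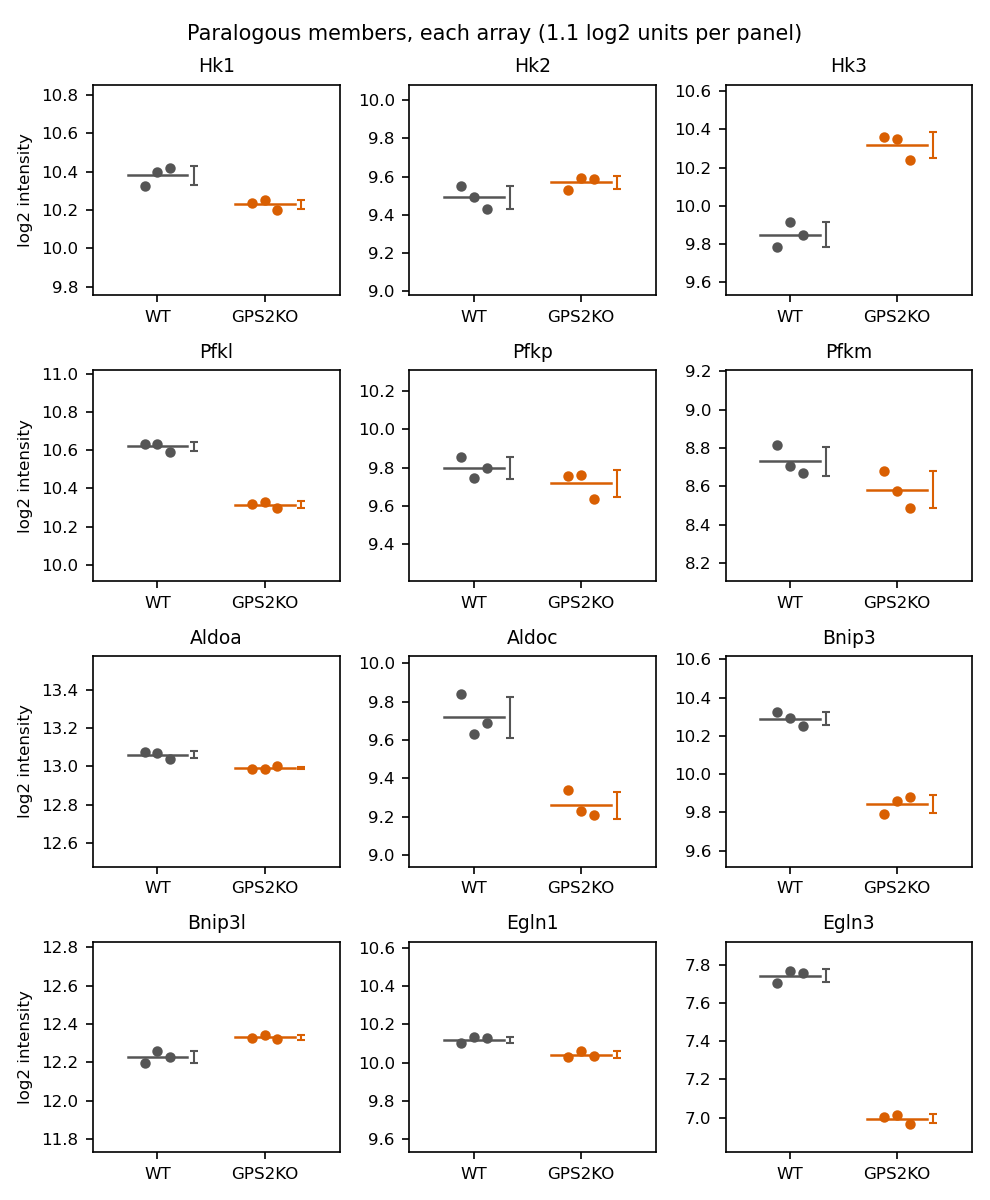
Log2 intensity on each array for 12 paralogous members, 3 WT (grey) and 3 GPS2KO (orange) arrays, with means as lines and SDs as bars. Each panel spans 1.1 log2 units and does not start at 0. Hk3 lies higher in GPS2KO while Hk1 lies lower, and Egln3, Bnip3, Aldoc and Pfkl lie lower in GPS2KO.

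Several of the best known hypoxia-induced genes did not pass. Of the 16 measured genes listed as hypoxia-induced outside the route, 4 fell (25.0%), 0 rose and 12 did not pass. The 16 include Hif1a, the gene of the factor itself. Over all genes that were not dim, 6.06% fell and 4.54% rose. The fall of Higd1a, counted here, was lost in 7 of the 12 alternatives. Ndrg1, a stress-induced protein of differentiation, was the remaining fall. It was at 10.03, 10.00 and 10.05 in WT and 9.80, 9.80 and 9.79 in GPS2KO, a fall of 0.23 (SE 0.0363, adjusted p = 0.0104) with no overlap. Vegfa, the angiogenic growth factor, was at 10.15, 10.21 and 10.30 against 10.03, 10.10 and 10.13, a difference of -0.13 with adjusted p = 0.192. Its groups did not overlap.

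The collagen prolyl hydroxylase gene P4ha1 was at 11.47, 11.41 and 11.48 against 11.31, 11.34 and 11.37 (-0.12, adjusted p = 0.152; 0.0186 with a variance trend). Its relative P4ha2 was at 9.44, 9.38 and 9.40 against 9.41, 9.35 and 9.32 (-0.05). Ero1a, an oxidase of protein folding, differed by -0.06 and Ankrd37 by -0.13. Car9, a carbonic anhydrase at the cell surface, was at 7.57, 7.59 and 7.60 against 7.74, 7.55 and 7.60, so that only GPS2KO replicate 1 stood above WT. The histone demethylase gene Kdm3a differed by -0.01 (-0.11 to 0.10). Mxi1, an antagonist of MYC, differed by 0.12 without overlap of the groups (adjusted p = 0.235). Adm, which encodes the vasodilator adrenomedullin, had a dim signal of 4.69 ± 0.284 in WT and 4.86 ± 0.0498 in GPS2KO (SD), and its interval of -0.12 to 0.47 was the widest on the list.

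The glycolytic enzymes and the other hypoxia-induced genes had the same median difference, -0.07. Their shares of falls were 13.3% and 25.0%, against 6.06% of all genes that were not dim. By array, the median deviation from the WT mean was -0.05, -0.04 and -0.06 for the enzymes on the 3 GPS2KO arrays, and -0.08, -0.06 and -0.09 for the other genes. All tested genes had -0.01 on each of these arrays. The spread among members was far larger than the shift: the enzymes ran from -0.46 to 0.47 and the other genes from -0.75 to 0.17. The value of 0.17 was that of Adm, the dim member, and without it the other genes ran up to 0.12.

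**Figure D4:**
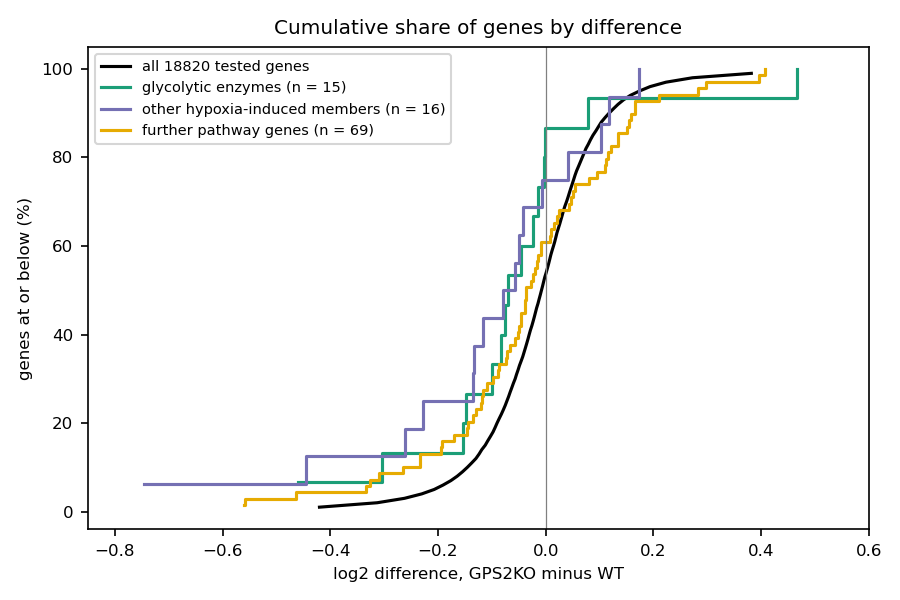
Cumulative share of genes (vertical, percent) at or below each log2 difference, GPS2KO minus WT (horizontal), for the 15 glycolytic enzymes, the 16 other hypoxia-induced members, 69 further genes of the pathway and all tested genes. Both member curves run to the left of the curve of all genes around their medians of -0.07, and the curve of further genes crosses it above 0.

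Other genes of the pathway were taken from a list of 76, of which 69 were tested. Falls numbered 9 (13.0%) and rises 4 (5.80%), the other 56 did not pass, and the median was -0.04. Over all tested genes the shares were 3.83% and 2.90%, and 6.06% and 4.54% among genes that were not dim, so a single call in a small group is close to that background. Of 3 further genes of glucose entry, 2 fell. The neuronal and myeloid glucose transporter gene Slc2a3 was at 8.32, 8.21 and 8.45 in WT and at 7.79, 7.87 and 7.64 in GPS2KO, a fall of 0.56 (adjusted p = 0.00587). Slc2a6, a transporter of lysosomes in macrophages, was at 10.49, 10.46 and 10.47 against 10.06, 10.01 and 9.96, a fall of 0.46 (adjusted p = 0.000802). Slc2a8, the other listed transporter, differed by -0.07 with overlapping groups (adjusted p = 0.506).

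Of 11 further genes of pyruvate and lactate handling, 1 rose and 0 fell. The rise was that of Pdp1, the phosphatase that reopens pyruvate dehydrogenase and so opposes Pdk1. It was at 9.86, 9.87 and 9.92 in WT and at 10.18, 10.18 and 10.13 in GPS2KO (0.28, SE 0.0393; adjusted p = 0.00581). The other kinases Pdk2, Pdk3 and Pdk4 differed by 0.02, -0.06 and 0.13, and the pyruvate carrier subunit Mpc1 by 0.15 (adjusted p = 0.0709). The lactate transporter Slc16a1 differed by 0.02 and Slc16a7 by 0.12. Ldhb had the largest difference of the 11, 0.30, without passing (adjusted p = 0.0942). Me1 differed by -0.17 (adjusted p = 0.0750), Pdhb by -0.10 and Dlat by -0.05. In all, 7 of the 11 had a higher mean in GPS2KO and 4 a lower one. The groups did not overlap for 5 with GPS2KO higher (45.5%) and 2 with GPS2KO lower (18.2%), against 11.9% and 15.2% of all tested genes.

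Among glycogen genes, Gys1, glycogen synthase, fell by 0.31 (adjusted p = 0.00284) from 9.96, 10.01 and 10.00 to 9.68 on each GPS2KO array, and 6 others did not pass. Of 6 genes of the pentose phosphate pathway, 0 passed. They lay between -0.12 and 0.08, with 2 at an unadjusted p under 0.05. Of 7 further genes of the HIF machinery, Epas1, which encodes HIF-2 alpha, fell by 0.23 (adjusted p = 0.0435). That call ended without any 1 of the arrays except WT replicate 1, at adjusted p from 0.102 without GPS2KO replicate 2 to 0.128 without GPS2KO replicate 3. Arnt2 differed by -0.15 (adjusted p = 0.220) and Egln2 by -0.14 (adjusted p = 0.187), and neither passed. Arnt, Vhl and Hif1an lay between -0.04 and -0.02, and the dim Hif3a differed by 0.01. In all, 6 of the 7 had a lower mean in GPS2KO (85.7%, against 53.6% of all genes).

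Of 30 further hypoxia-induced genes, 5 fell (16.7%) and 3 rose (10.0%), against 6.06% and 4.54% of all genes that were not dim. Ak4, a mitochondrial adenylate kinase, fell most, from 9.59, 9.72 and 9.53 to 9.06, 9.02 and 9.08 (-0.56, adjusted p = 0.00125). The growth factor gene Pdgfb fell by 0.33 (adjusted p = 0.00238), and the histone demethylase gene Kdm4b by 0.26 (adjusted p = 0.00881). The falls of the TORC1 inhibitor gene Ddit4 (0.33, adjusted p = 0.0168) and of the amidating enzyme gene Pam (0.23, adjusted p = 0.0162) ended without single arrays. The Ddit4 call was lost without any WT array or GPS2KO replicate 2, at adjusted p up to 0.066, and the Pam call without replicate 1 or 3 of either group, up to 0.0679. The rises were those of Bhlhe40, a transcriptional repressor (0.40, adjusted p = 0.00265), Tfrc, the transferrin receptor (0.41, adjusted p = 0.00983), and Wsb1 (0.17, adjusted p = 0.0366), which lost its call whichever array was left out, at adjusted p up to 0.119. The calls in this list thus went in both directions, and those of Ddit4, Pam and Wsb1 depended on single arrays.

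Some members have near-identical copies in the mouse genome, from which probes may take signal, and 9 members had several probe sets. All 17 Gapdh probe sets lay between -0.04 and 0.00, with adjusted p over all probe sets of at least 0.643. Both Bnip3 probe sets fell, by 0.45 and 0.38, and both of Bnip3l were higher, by 0.10 and 0.14. The Higd1a probe sets differed by -0.26 and -0.13, and the latter did not pass (adjusted p = 0.204). The sets of Pkm had opposite signs, -0.00 and 0.03, and in the other 8 genes all sets had the same sign. Gapdh, Pgk1 and Pgam1 each held 1 pair of probe sets with identical means and differences, so these pairs are not separate measurements.

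**Figure D5:**
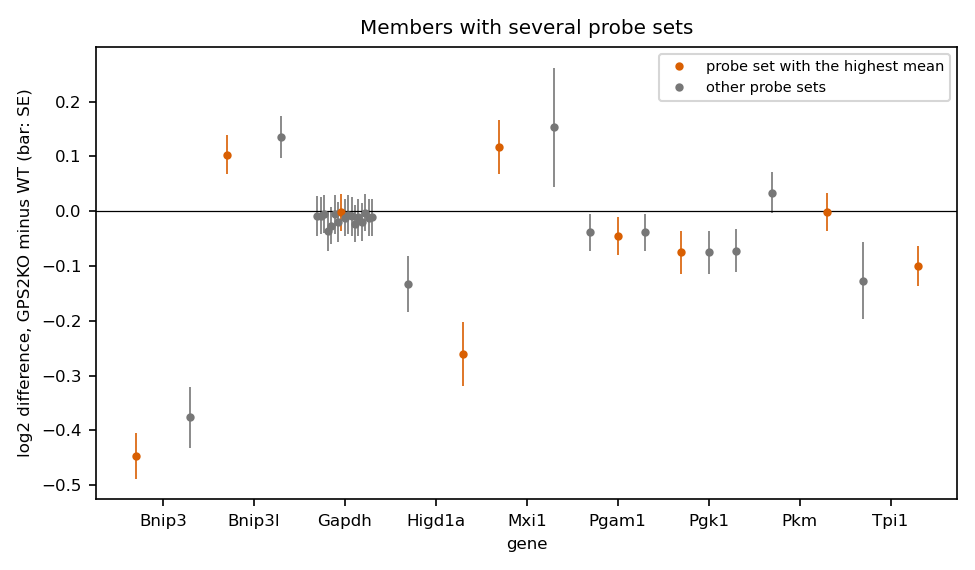
Log2 difference (GPS2KO minus WT) with limma's SE for every probe set of the 9 members with several; orange marks the probe set used and grey the others. The 17 Gapdh probe sets sit at or just under 0, and both Bnip3 probe sets lie at -0.38 or lower.

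In cultured marrow, RNA from other cells can add to each value, and fewer cells of a type and less RNA per cell cannot be told apart. Of 10 fibroblast and stromal markers, 3 fell (Col1a1, Pdgfrb, Thy1), 1 rose (Dcn) and 6 did not pass. Their summed intensity was 15055 to 15536 on the WT arrays and 13841 to 14009 on the GPS2KO arrays, so it was lower in the group in which 9 members fell. Their part in the result was not tested. Osteoclast markers held 2 rises, 1 fall and 5 of 8 that did not pass, with summed intensities of 2453 to 2704 and 4182 to 4506, and their part was not tested either. Atp6v0d2, the brightest of them, went from a mean of 10.70 to 11.71 on the log2 scale (adjusted p = 0.000194). That gene made most of the change in the osteoclast sum. Ctsk rose by 0.47 and Ocstamp fell by 0.68, while Acp5, Mmp9, Calcr, Dcstamp and Oscar did not pass. Of 10 proliferation genes, 0 passed limma's threshold and 2 had an unadjusted p under 0.05, with sums of 27178 to 27691 and 27142 to 28570. Macrophage markers held 2 rises and 0 falls among 9, with sums of 46710 to 48323 and 48410 to 48696. Dendritic cell markers held 1 rise among 8, Itgax (1.00, adjusted p = 0.00132), with sums of 1560 to 1767 and 1858 to 1990. B cell markers held 1 fall among 5, Cd79b (-0.46, adjusted p = 0.00373), with sums of 767 to 829 and 670 to 697. The part of these lists was not tested. Markers of neutrophils, erythroid cells, T and NK cells and mast cells were mostly dim, at 7 of 9, 3 of 3, 6 of 7 and 5 of 6 tested. Among them Ngp, a neutrophil granule gene, rose by 0.46 (adjusted p = 0.0151) and Cd4 rose by 0.43 from a WT mean of 8.75 (adjusted p = 0.00142), and the others did not pass. The part of either in the result was not tested.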

How the data were processed

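RNA of 6 macrophage samples, 3 WT and 3 GPS2KO, was measured on Affymetrix arrays, 1 per sample. The deposited values are log2 intensities per probe set, which the authors made with RMA in the R package oligo, per the submitters' processing notes. RMA corrects background, normalizes by quantiles and summarises by median polish, which hides a shift common to most genes. Versions and build: not given in the sources used here. Precision is limited by the number of arrays, which have no read depth.

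Of 35556 probe sets, 21218 had 1 gene symbol in GEO's platform annotation, 1881 had several and 12457 were not listed. The highest mean chose 1 probe set per gene, which left 18820 genes. The test was limma 3.58.1 under R 4.3.3 (lmFit, eBayes, group as the only term, 2-sided), with Benjamini-Hochberg adjustment over all tested genes and a threshold of 0.05. A gene was dim where its mean lay under 5.49, the 40th percentile, and no filter was applied. Differences are GPS2KO minus WT. The calculation was tested on simulated data.

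The members, lists and tests were chosen with earlier results of these data known. All 36 measured members are named, as are the 8 further pathway genes with the smallest p among those past the threshold. Slc2a8, Tfrc, Pam, Ddit4, Wsb1, Epas1, Mpc1, Pdk2, Pdk3, Pdk4, Slc16a1, Arnt, Vhl, Hif1an and the single marker genes were named after their values were seen. The same holds for Arnt2, Egln2, Hif3a, Ldhb, Me1, Slc16a7, Pdhb and Dlat. Alternatives were quantile normalization, median centring, a variance trend, leaving out dim genes, the mean of all probe sets, the replicate block and leaving out each array. Replicate numbers are shared between the groups, but nothing in the labels says that they pair samples. Motifs were searched in the 250 bases before each start in the RefSeq table, 32851 windows in all. Summed marker intensities are on the linear scale.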

Additional observations from a re-analysis of the deposited data

How the results depend on the processing

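In no alternative did a named gene with a call change direction, and 9 of the 11 calls among members (all but Pfkfb3 and Higd1a) held in all 12 alternatives. Leaving out 1 array left 8 to 9 falls and 1 to 2 rises among members, 2 falls of glycolytic enzymes, and 3 to 4 falls of other hypoxia-induced genes. The median of the enzymes then ran from -0.078 to -0.047 and that of the other hypoxia-induced genes from -0.085 to -0.063, and further pathway genes held 6 to 7 falls and 3 rises. With the replicate block, 8 members fell and 1 rose, as Higd1a and Pfkfb3 did not pass (adjusted p = 0.0852 and 0.0551), and 862 genes passed instead of 1265. Same-numbered samples did not deviate together (correlations across genes 0.00348, 0.0258 and -0.00604), so the block has no basis beyond the numbers. With a variance trend 5 enzymes fell instead of 2 (Hk1, Aldoa and Tpi1 were added), 8 further pathway genes rose instead of 4, and 2174 genes passed. Without dim genes 8 further pathway genes rose and 1962 genes passed. Centring each array on its median moved the medians of enzymes and other hypoxia-induced genes to -0.094 and -0.092, and gave 460 rises and 1061 falls over all genes, a share of rises of 30.2% against 43.1%. This setting lowers all genes alike, and the median of all genes went from -0.01 to -0.03. The median of the other hypoxia-induced genes was -0.058 after quantile normalization and -0.079 without dim genes. Leaving out any 1 array left 749 to 842 genes. The causes of the other shifts were not tested. Signal over background limits Adm and Higd1a.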
